A study of Mus musculus with 2 samples.

Results

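The 7 genes described here encode a transforming growth factor beta (TGF-beta) ligand, its receptors, a Smad that carries its signal and inhibitors that limit it. They are Tgfb1, Tgfbr1, Tgfbr2, Smad3, Smad7, Ski and Skil, chosen by symbol from the 27998 genes listed in both count matrices, each with 1 row. The cells were CD45.1+ immune cells taken by flow sorting out of pancreas from female mice of the NOD/ShiLtJ strain, in which autoimmune diabetes arises without treatment. Mice were 7 or 12 weeks old, with 1 library of 10x Genomics Chromium 3′ single-cell RNA sequencing per age and no other treatment or allele named. With 1 library per age, age cannot be told apart from library and no test was possible. The number of mice behind each library was not known here.

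TGF-beta1 is made as a latent precursor and has to be released before it can bind. The type II receptor Tgfbr2 binds it and phosphorylates the type I receptor Tgfbr1, which in turn phosphorylates Smad2 and Smad3. These join Smad4 and regulate genes in the nucleus. Smad7 is itself induced by the signal and blocks the receptor complex, and Ski and SnoN (encoded by Skil) hold Smad-bound genes repressed, so the pathway carries its own brakes. In lymphocytes the pathway is known for restraining T cell activation, for its part in regulatory T cell differentiation and for inducing Itgae, the alpha chain of an integrin that binds E-cadherin on epithelium.

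The 7 week library held 1113 barcodes and 8701184 unique molecular identifiers (UMIs, each standing for 1 captured transcript), and the 12 week library 2812 barcodes and 19288252 UMIs. Median depth was 5643 and 4960.5 UMIs per barcode. Only 2 barcode sequences occurred in both libraries. After filtering, 1105 and 2781 cells were kept, and clusters with at least 50 of them in each library gave 11 classes to compare. Ptprc, the gene of CD45, was detected in each of them, at 382 to 723 CPM (UMIs per 1000000 UMIs of the class) over both libraries. Classes carry "-like" where marker lists named them. The others keep the names of leading genes: the Cd40lg Il7r cluster (Cd3e 516 and Cd4 334 CPM), the Ncr1 Klra6 cluster (Ncr1 505 and Cd3e 420 CPM, the former an NK receptor and the latter a T cell receptor component) and the Ppp1r14a Ffar2 cluster (Lyz2 1134 CPM). Cells of that last cluster had T cell transcripts mainly in the younger library, with Cd3e at 125 CPM at 7 weeks (a UMI in 43.3% of cells) and 18.1 CPM at 12 weeks (16.6%), and Foxp3 at 20.2 and 0 CPM. Its Smad7 and Tgfbr2 ratios, and the Smad7 ratios of B-like, plasmacytoid DC-like and macrophage-like cells, are therefore also given without cells that had a Cd3e UMI, a choice made after the data were seen. In the Ppp1r14a Ffar2 cluster the B cell gene Cd79a went the other way, at 3.57 CPM at 7 weeks (5% of cells) and 40.4 CPM at 12 weeks (20.9%). Cells with a Cd79a UMI were not left out.

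On mm10, by the GENCODE vM21 annotation, Tgfb1 lies on chromosome 7 from 25687002 to 25705077, Tgfbr1 on chromosome 4 from 47353222 to 47414931 and Tgfbr2 on chromosome 9 from 116084293 to 116175360. Smad3 lies on chromosome 9 from 63646767 to 63757994, Smad7 on chromosome 18 from 75367529 to 75395935, Ski on chromosome 4 from 155154075 to 155222592 and Skil on chromosome 3 from 31095058 to 31122577. All are protein-coding genes that overlap no other annotated gene. Ratios below are 12 weeks over 7 weeks, brackets hold 95% intervals, and these cover counting error only. Levels are compared between classes or libraries for 1 gene at a time, since 3′ capture differs between genes.

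**Figure D1:**
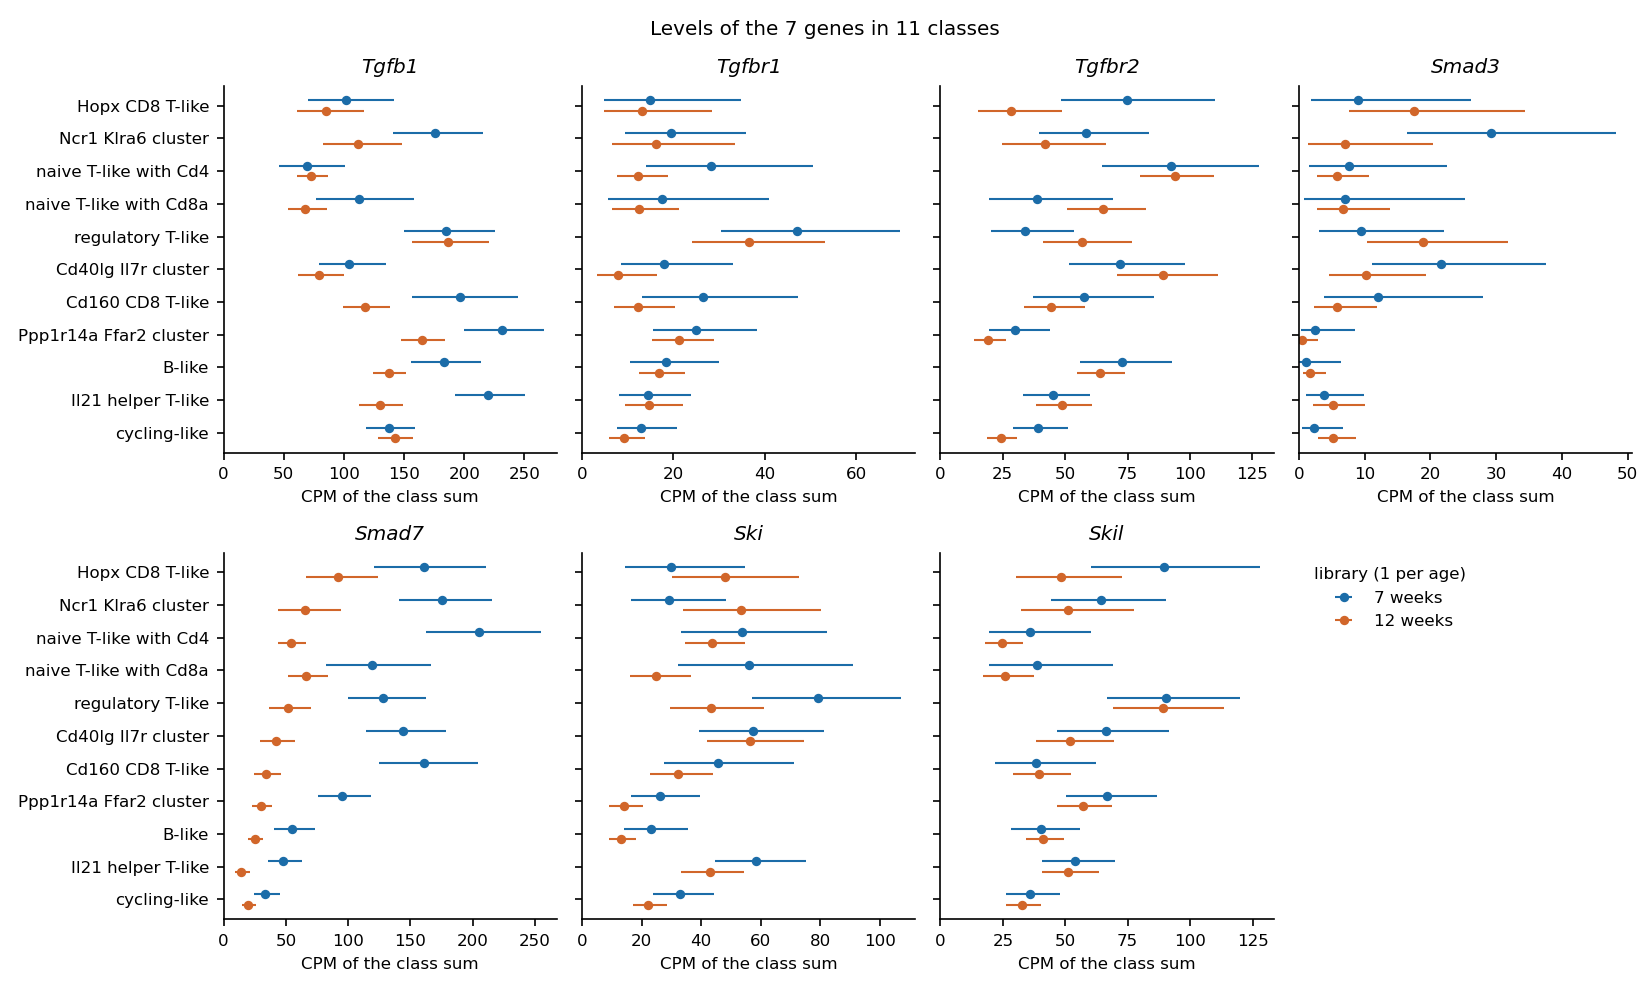
Level of each of the 7 genes (x axis, CPM of the class sum, from 0) in 11 classes (y axis) in the 7 week library (blue) and the 12 week library (orange). Points are the summed UMIs of a class and bars exact Poisson 95% intervals, with 1 library per age. Smad7 is lower at 12 weeks in each of the 11 classes. Its intervals overlap in naive T-like cells with Cd8a, Hopx CD8 T-like cells and cycling-like cells. Those of the other genes overlap in most classes.

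Smad7, the inhibitor that the pathway induces against its own receptors, was lower in the 12 week library in each of the 11 classes, by 1.71-fold to 4.77-fold. The interval of the ratio lay below 1 in all 11. Across the classes its common ratio, the Mantel-Haenszel ratio that weighs each class by its UMIs, was 0.365 (0.326 to 0.410). The other 6 genes, summed, had a common ratio of 0.805 (0.765 to 0.847). Both ratios are smaller than 1, but that of Smad7 was lower than that of the other 6 genes summed, and their intervals did not meet. Class by class, the interval of Smad7 set against those 6 genes lay below 1 in 8 of the 11. Of 25 other pathway genes with at least 100 UMIs, 4 were also lower by over 1.5-fold in this ratio and 1 was higher. All these genes were chosen with earlier results of these data known.

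Naive T-like cells with Cd4 had the highest Smad7 level of the 11 classes at 7 weeks. They held 205 CPM (163 to 255), from 80 UMIs in 79 cells, and 54.3 CPM (43.8 to 66.5) in the 12 week library, from 93 UMIs in 374 cells. The level at 12 weeks was 3.78-fold lower (ratio 0.265, 0.194 to 0.362), and the 2 intervals did not meet. Naive T-like cells with Cd8a held 119 CPM (82.6 to 167) and 66.1 CPM (51.4 to 83.6) of Smad7, 1.81-fold lower (ratio 0.554, 0.362 to 0.862). Both classes are led by genes of resting, recirculating lymphocytes such as Lef1.

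Among CD8 T-like classes the sizes differed. Cd160 CD8 T-like cells, led by Ccl5, Cd160 and Klrc1, had 161 CPM (125 to 204) of Smad7 in the younger library and 33.7 CPM (24.2 to 45.7) in the older, which is 4.77-fold lower (ratio 0.210, 0.139 to 0.314). Hopx CD8 T-like cells, led by Ccl5, Hopx and Ctla2a, had 161 CPM (121 to 210) and 91.8 CPM (66.2 to 124), 1.76-fold lower (ratio 0.569, 0.371 to 0.868). The Smad7 intervals of the 2 classes overlapped at 7 weeks, where they rest on 67 and 54 UMIs, and did not overlap at 12 weeks. The difference between the 2 classes was not tested.

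Smad7 was also lower at 12 weeks in the helper and regulatory T-like classes. In regulatory T-like cells, which were led by Foxp3, its level was 128 CPM (99.5 to 163) at 7 weeks and 51.4 CPM (36.4 to 70.6) at 12 weeks (ratio 0.401, 0.262 to 0.605). The Cd40lg Il7r cluster had 144 CPM (114 to 179) and 41.8 CPM (29.5 to 57.7), a ratio of 0.291 (0.192 to 0.435). Il21 helper T-like cells, which lead with Tnfsf8 and Il21, had low levels in both libraries, 48.0 CPM (35.6 to 63.3) and 14.1 CPM (8.81 to 21.3), a ratio of 0.293 (0.169 to 0.492).

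The direction was shared by the other 4 classes, of which cycling-like cells were also largely T cells, with Cd3e in 98.4% and 99.3%. The Ncr1 Klra6 cluster had 176 CPM (141 to 216) of Smad7 at 7 weeks and 65.1 CPM (43.3 to 94.1) at 12 weeks (ratio 0.371, 0.234 to 0.572). B-like cells had 55.3 CPM (40.8 to 73.3) and 25.4 CPM (19.9 to 32.0), a ratio of 0.459 (0.314 to 0.676), or 0.510 (0.342 to 0.770) without cells with a Cd3e UMI. The Ppp1r14a Ffar2 cluster had 95.2 CPM (75.5 to 119) and 30.01 CPM (22.8 to 38.8), a ratio of 0.315 (0.221 to 0.447). Without the cells with a Cd3e UMI, which left 34 and 136 cells, it had 95.5 and 30.6 CPM, a ratio of 0.321 (0.205 to 0.504), so the difference was as large without them. Cycling-like cells, led by Hmmr and Ccna2, had the smallest difference, 33.6 CPM (24.4 to 45.1) against 19.7 CPM (14.7 to 25.7), a ratio of 0.585 (0.385 to 0.894).

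Smad7 was also lower at 12 weeks in 3 smaller classes that had at least 20 cells in each library. Plasmacytoid DC-like cells (30 and 55 cells) had 202 CPM at 7 weeks and 51.0 CPM in the older library, a ratio of 0.253 (0.148 to 0.417). The Il10 Lag3 cluster (33 and 97 cells) had 125 and 43.0 CPM, a ratio of 0.345 (0.188 to 0.625). Macrophage-like cells (20 and 47 cells) had 98.7 and 12.9 CPM, the latter from 7 UMIs, a ratio of 0.130 (0.0469 to 0.319). Cd3e was lower at 12 weeks in 2 of these classes too, at 162 and 35.5 CPM in plasmacytoid DC-like and 70.5 and 12.9 CPM in macrophage-like cells. Without cells with a Cd3e UMI the Smad7 ratio was 0.233 (0.125 to 0.418) in plasmacytoid DC-like cells and 0.222 (0.0684 to 0.6996) in the 13 and 41 macrophage-like cells left. In the 11 compared classes no single cell held more than 14.7% of a library's Smad7 UMIs in a class.

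The order of classes by Smad7 was led by Hopx CD8 T-like cells, by the mean of both libraries' log levels, and ended with cycling-like cells, which were 4.80-fold lower at 7 weeks (3.16 to 7.31) and 4.67-fold lower at 12 weeks (3.04 to 7.13). Most neighbours in this order could not be separated: of 10 neighbouring pairs, the interval of the ratio left out 1 in 3 at 7 weeks and in 1 at 12 weeks. Over the 11 classes the genes whose levels ran most alike to Smad7 were Rbms1 (Pearson r 0.893), 1810032O08Rik (0.881), Efr3a (0.877), Klf6 (0.868) and Pgs1 (0.863), out of 6965 genes with at least 300 UMIs. They were picked for the highest values over only 11 points. All points come from the same 2 libraries, and the values describe only these. Those 5 genes did not share Smad7's library difference, their common ratios lying between 0.786 for Rbms1 and 1.22 for Efr3a.

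The share of cells with at least 1 Smad7 UMI moved the same way. Of naive T-like cells with Cd4, 62.0% (50.4 to 72.7) had one at 7 weeks and 20.9% (16.9 to 25.3) at 12 weeks. Thinning each cell to 1000 UMIs, which makes depth equal and left out no cell, gave 20.3% (12.0 to 30.8) and 4.81% (2.88 to 7.5). For comparison, 2.53% and 7.22% of the same cells had a UMI of Cd79a, a B cell receptor component that T cells should lack, at median depths of 4957 and 4377 UMIs. Free RNA and doublets, either of which can bring such UMIs, were not separated. Smad7 exceeded that share in both libraries.

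Among B-like cells the margin was narrower. A Smad7 UMI was found in 21.9% (15.7 to 29.1) at 7 weeks and 11.03% (8.60 to 13.9) at 12 weeks, while Cd3e, a T cell gene, was found in 10.0% (5.82 to 15.7) and 6.55% (4.68 to 8.88), at median depths of 4930.5 and 4484 UMIs. After thinning, Smad7 was in 3.75% (1.39 to 7.98) and 2.24% (1.20 to 3.80) of B-like cells, and Cd3e in 3.13% and 1.38%. At equal depth the Smad7 intervals of B-like cells overlapped between the libraries, from 6 and 13 cells with a UMI. By level, Cd3e stood at 20.7 and 16.6 CPM in B-like cells and at 402 to 831 CPM in the T-like classes. Smad7 stood at 55.3 and 25.4 CPM in B-like cells and at 48.0 and 14.1 CPM in Il21 helper T-like cells, with overlapping intervals in both libraries. Only cycling-like cells came below Il21 helper T-like cells in the order of classes by Smad7. Naive T-like cells with Cd4 had 205 and 54.3 CPM.

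**Figure D2:**
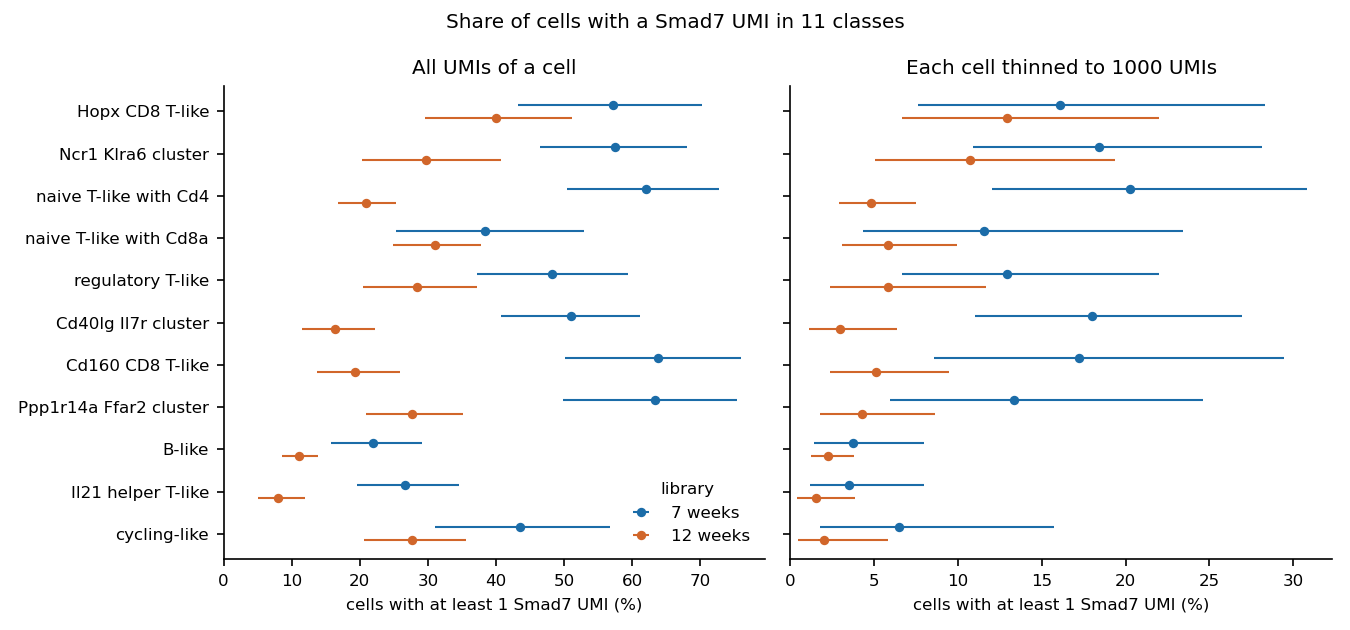
Share of cells with at least 1 Smad7 UMI (x axis, %) in 11 classes (y axis), with all UMIs of a cell (left) and with each cell thinned to 1000 UMIs (right), in the 7 week (blue) and 12 week (orange) libraries. Bars are exact Clopper-Pearson 95% intervals. The share is lower at 12 weeks in each class in both panels, from 62.0% to 20.9% in naive T-like cells with Cd4, and after thinning the intervals overlap in most classes.

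Tgfb1, the ligand, was detected in each class and was moderately lower at 12 weeks, with a common ratio of 0.767 (0.713 to 0.826). Its ratio was below 1 in 8 of 11 classes, and the interval lay below 1 in 6. The Il21 helper T-like class had 220 CPM in the younger library and 130 CPM in the older, giving 0.590 (0.486 to 0.716). Cd160 CD8 T-like cells had 197 and 118 CPM, a ratio of 0.598 (0.453 to 0.794). In regulatory T-like cells, by contrast, the values were 185 and 187 CPM (ratio 1.01, 0.774 to 1.32), and in cycling-like cells 137 and 142 CPM (ratio 1.03, 0.864 to 1.24). The difference between these classes was not tested.

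By the mean of both libraries' log levels, which sets the order of classes for each gene here, Tgfb1 was highest in the Ppp1r14a Ffar2 cluster, at 231 and 165 CPM, and lowest in naive T-like cells with Cd4, at 69.2 and 73.0 CPM. In the 12 week library alone, regulatory T-like cells had more (187 CPM) and naive T-like cells with Cd8a less (68.0 CPM). The 2 ends of the order differed 3.34-fold at 7 weeks (2.22 to 5.19) and 2.26-fold at 12 weeks (1.83 to 2.80). Neighbours in the order had overlapping levels, with the ratio's interval leaving out 1 in 0 of 10 pairs at 7 weeks and 2 of 10 at 12 weeks. Of the smaller classes, macrophage-like cells had 460 CPM (374 to 561) at 7 weeks and 241 CPM (201 to 286) at 12 weeks, which is above each of the 11 compared classes in both libraries. The genes most alike to Tgfb1 over the 11 classes were Brk1 (Pearson r 0.939), Scamp2 (0.934), Otub1 (0.923), Cltc (0.919) and Ctnna1 (0.915), among the same 6965 genes. They were picked for the highest values over only 11 points, and describe only these libraries.

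The receptor genes differed in pattern between classes. Of the compared classes, naive T-like cells with Cd4 had the most Tgfbr2, the ligand-binding chain, at 92.3 CPM (7 weeks) and 94.0 CPM (12 weeks). Tgfbr2 was lowest among these classes in the Ppp1r14a Ffar2 cluster, at 29.8 and 19.1 CPM, 3.10-fold (1.81 to 5.39) and 4.91-fold (3.42 to 7.22) lower. Its common ratio was 0.918 (0.809 to 1.04), an interval that includes 1. The ratio was below 1 in 6 of 11 classes. In Hopx CD8 T-like cells Tgfbr2 was 2.63-fold lower at 12 weeks, at 74.6 and 28.4 CPM (ratio 0.381, 0.179 to 0.773), and in cycling-like cells 1.61-fold lower (ratio 0.619, 0.423 to 0.912). In regulatory T-like cells it was 33.9 CPM at 7 weeks and 56.8 CPM at 12 weeks, from 18 and 42 UMIs, with a ratio of 1.67 (0.943 to 3.09).

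Tgfbr1, the signalling chain, was sparse, with 224 UMIs in the 7 week library and 403 in the 12 week library. It was highest among compared classes in regulatory T-like cells, at 47.1 CPM (7 weeks) and 36.5 CPM (12 weeks), and lowest by the mean in cycling-like cells, at 12.98 and 9.28 CPM, although the Cd40lg Il7r cluster had less at 12 weeks (7.92 CPM). The 2 ends differed 3.63-fold (1.88 to 7.16) and 3.94-fold (2.20 to 7.07). Plasmacytoid DC-like cells had more, 126 CPM (87.8 to 175) and 122 CPM (91.8 to 159), and macrophage-like cells had 89.3 and 121 CPM. Its common ratio was 0.744 (0.604 to 0.918), but in 1 of 11 classes alone did the interval leave out 1, naive T-like cells with Cd4 at 0.435 (0.2004 to 0.999). There 11 and 21 UMIs gave 28.2 and 12.3 CPM.

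Smad3, which the type I receptor phosphorylates, gave 68 and 118 UMIs in all, too few to describe in most classes. Of the compared classes, the Cd40lg Il7r cluster was highest by the mean of both libraries, at 21.6 CPM (7 weeks) and 10.2 CPM (12 weeks), but in neither library alone. Regulatory T-like cells led these classes at 12 weeks, at 18.9 CPM, from 14 UMIs. The Ncr1 Klra6 cluster, highest of them at 7 weeks, had 15 UMIs there and 3 at 12 weeks (29.3 and 6.98 CPM, ratio 0.238, 0.0442 to 0.843). Smaller classes had more, ILC2-like cells 73.0 CPM (29.4 to 150) at 12 weeks, from 7 UMIs in 20 cells. NK-like cells had 31.6 CPM (10.3 to 73.7) at 7 weeks, from 5 UMIs in 25 cells. The common ratio over the compared classes was 0.866 (0.609 to 1.23), so a difference between the libraries was not detectable at this depth.

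Of the compared classes, regulatory T-like cells were highest in both Ski and Skil, the nuclear corepressors, by the mean of the libraries. Ski stood there at 79.2 CPM (7 weeks) and 43.3 CPM (12 weeks), a ratio of 0.547 (0.334 to 0.887). Ski was lowest among these classes in B-like cells, at 23.0 and 13.04 CPM. At 12 weeks alone, 4 of the compared classes had more Ski than regulatory T-like cells, the Cd40lg Il7r cluster most at 56.5 CPM. Its common ratio was 0.748 (0.646 to 0.866). Not all classes shared the direction: Ski was 29.3 and 53.5 CPM in the Ncr1 Klra6 cluster (ratio 1.83, 0.914 to 3.77) and 29.9 and 48.1 CPM in Hopx CD8 T-like cells (ratio 1.61, 0.732 to 3.81), from 10 to 23 UMIs a value.

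Skil had the common ratio nearest 1 of the 3 inhibitors. Regulatory T-like cells held 90.5 CPM at 7 weeks and 89.3 CPM at 12 weeks (ratio 0.987, 0.670 to 1.46). Naive T-like cells with Cd4, the lowest of the compared classes, held 35.9 and 24.5 CPM. The smaller Il10 Lag3 cluster had more Skil than regulatory T-like cells, at 98.0 CPM (61.4 to 148) and 91.9 CPM (67.6 to 122). The common ratio of Skil was 0.869 (0.765 to 0.988), and the interval within a class lay below 1 in 1 of 11, Hopx CD8 T-like cells with 89.6 and 48.1 CPM (ratio 0.537, 0.295 to 0.962).

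Counting a gene as lower or higher where it had at least 30 UMIs in a class over both libraries and a ratio beyond 1.5-fold (0.5 UMI added to each sum), the 7 genes gave 61 pairs of a gene and a class, of which 25 were lower at 12 weeks. Over all genes, 9.81% of such pairs were lower. Smad7 made 11 of the 25 and the other 6 genes 14 of their 50. Higher pairs numbered 4 of 61 (all 4 among the 50), where 9.28% of such pairs over all genes were higher. Smad3 had too few UMIs to be counted in any class, and Tgfbr1 in 5.

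Class by class, Smad7 was joined by 0 to 3 of the other genes. In B-like cells 2 of 6 were lower, Smad7 and Ski, where 8.48% of all genes measured were. In naive T-like cells with Cd4 it was 2 of 6, Smad7 and Tgfbr1, against 12.3%. In Il21 helper T-like cells and Cd160 CD8 T-like cells Smad7 and Tgfb1 were lower, 2 of 6 against 8.31% and 2 of 5 against 10.1%. The Cd40lg Il7r cluster had 1 of 5, Smad7 alone, against 9.59%. Naive T-like cells with Cd8a had the most, 4 of 5 against 11.8%, namely Smad7, Tgfb1, Ski and Skil, with Tgfbr2 higher. Skil counts there only through the added 0.5 UMI, since its plain ratio was 0.670.

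The remaining classes were similar. The Ppp1r14a Ffar2 cluster had 3 of 6 lower (Smad7, Tgfbr2 and Ski) against 11.6%. For Tgfbr2 this did not hold without cells with a Cd3e UMI, where its ratio was 1.09 (0.468 to 2.93) from 7 and 30 UMIs. There were, for cycling-like cells, 2 of 6 (Smad7 and Tgfbr2) against 8.93% and, for regulatory T-like cells, 2 of 6 (Smad7 and Ski) against 9.67%, with Tgfbr2 higher. The Ncr1 Klra6 cluster had 2 of 5 (Smad7 and Tgfb1) against 8.28%, and Hopx CD8 T-like cells 3 of 5 (Smad7, Tgfbr2 and Skil) against 9.04%. Ski was higher in these last 2. Of the 7 genes, Smad7 was lower by over 1.5-fold in each of the 11 classes, as were 46 of the 2570 genes measured in all of them, which is 1.79%.

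By the common ratio, Smad7 alone of the 7 genes was lower by over 1.5-fold, a rule that 5.06% of 9059 genes with at least 100 UMIs met. All 7 had a common ratio below 1, where 41.1% of those 9059 genes did. Only 33 of the 9059 had a lower common ratio than Smad7. For Tgfbr1, Ski and Tgfb1 the numbers were 763, 782 and 891, and for Smad3, Skil and Tgfbr2 1759, 1794 and 2381. Scaling the libraries by edgeR's trimmed mean (TMM) or by the median of gene ratios moved the class levels by -0.09 to 0.08 on the log2 scale, and Smad7 was below 1 in 11 of 11 classes with either. The counts of classes below 1 for Tgfb1 and Skil went from 8 and 9 to 8 and 8 with TMM and to 10 and 10 with the median of ratios.

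Set against the other 6 genes within a library, a measure that needs no scaling between libraries, Smad7 was again lower at 12 weeks. In naive T-like cells with Cd4 there were 71.4 Smad7 UMIs per 100 UMIs of the other 6 genes at 7 weeks (80 and 112 UMIs) and 21.4 at 12 weeks (93 and 434), a ratio of 0.3 (0.205 to 0.440). In Cd160 CD8 T-like cells the values were 42.7 and 13.4 per 100, a ratio of 0.314 (0.198 to 0.495). In the Cd40lg Il7r cluster they were 42.3 and 14.2 (ratio 0.335, 0.211 to 0.526). These were the 3 lowest ratios.

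All 11 classes had a ratio below 1, and the common odds ratio was 0.454 (0.3997 to 0.517). The interval lay below 1 in 8 of the 11. It included 1 in cycling-like cells at 0.647 (0.416 to 1.01), in naive T-like cells with Cd8a at 0.737 (0.442 to 1.24) and in Hopx CD8 T-like cells at 0.757 (0.453 to 1.26). In those 3 classes Smad7 itself was lower by 1.71-fold to 1.81-fold. The ratio also depends on the other 6 genes, of which some were lower and some higher in each. There a difference of Smad7 from the other 6 genes could not be told from counting error.

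**Figure D3:**
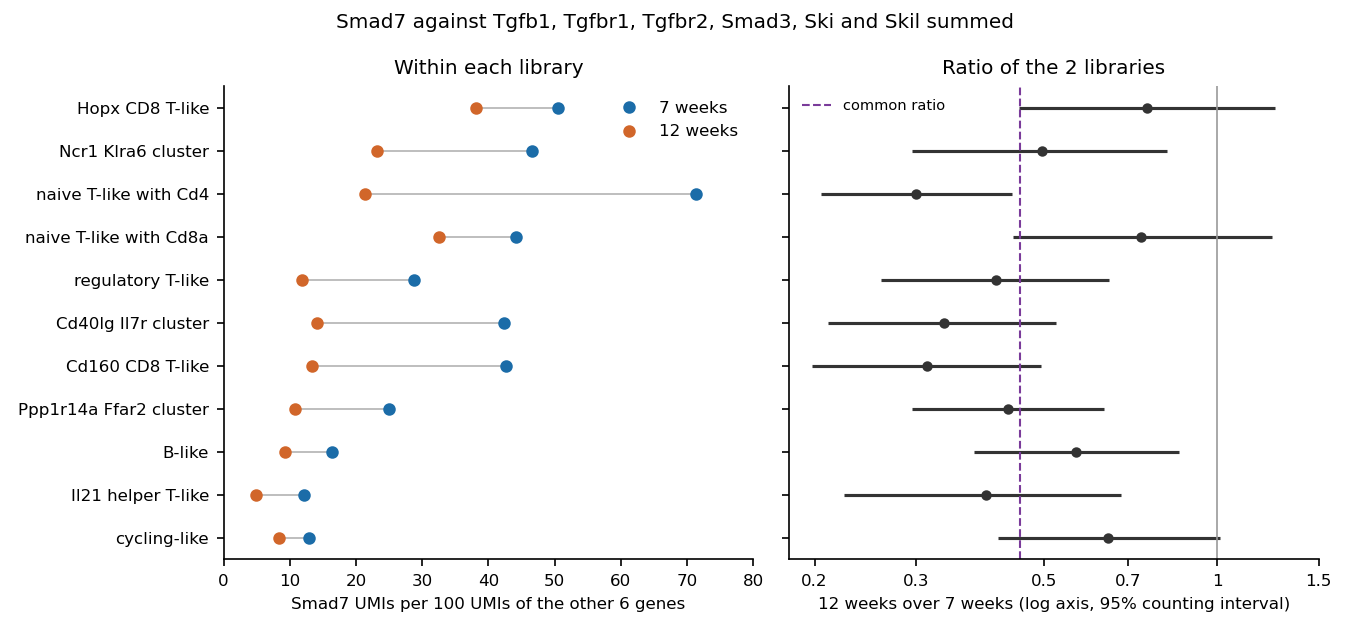
Smad7 UMIs per 100 UMIs of the other 6 genes summed (left, x axis from 0) in 11 classes (y axis) in the 7 week (blue) and 12 week (orange) libraries, and the ratio of the 2 values (right, log axis) with exact 95% counting intervals. The dashed line is the common ratio of 0.454, and 8 of the 11 intervals lie below 1.

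Taken 1 at a time, each of the other genes gave a common ratio of Smad7 against it below 1. Against Tgfb1, the ligand, it was 0.475 (0.411 to 0.549) and below 1 in 11 of 11 classes. Against Tgfbr1 it was 0.509 (0.398 to 0.650), also in 11 of 11 but with the interval below 1 in only 2, and against Tgfbr2 0.402 (0.338 to 0.479) in 10 of 11, Hopx CD8 T-like cells standing at 1.496. Against Ski and Skil, which inhibit the pathway as Smad7 does, it was 0.488 (0.403 to 0.592) and 0.438 (0.367 to 0.524), each in 10 of 11. Against Smad3 it was 0.413 (0.282 to 0.605), in 9 of 11, with the interval below 1 in 2.

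A list of 49 genes of the pathway by role gives the surroundings of these 7. Of its 42 other genes 25 had at least 100 UMIs in the compared classes, 4 of them were lower by over 1.5-fold in the common ratio and 1 was higher. Over all 9059 genes with that many UMIs, 5.06% were lower and 216 were higher. The median log2 common ratio of the 25 was -0.24, where the median of all genes was 0.06. The 4 lower genes were Furin, Itgae, Klf10 and Pmepa1, and the higher gene was Tgfbi.

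Of the latency and activation genes, 4 of 10 were measured. Furin, the protease that cleaves the TGF-beta precursor, was lower at 12 weeks with a common ratio of 0.568 (0.482 to 0.671). Il21 helper T-like cells had 91.3 CPM of Furin at 7 weeks and 32.6 CPM at 12 weeks (ratio 0.357, 0.249 to 0.507), and naive T-like cells with Cd4 35.9 and 9.93 CPM. The Ncr1 Klra6 cluster went the other way at 48.8 and 79.1 CPM (ratio 1.62, 0.939 to 2.83), and so did Cd160 CD8 T-like cells at 12.0 and 17.3 CPM. Nrros, which anchors latent TGF-beta on myeloid cells, had a common ratio of 1.02 (0.882 to 1.18), and Itgav, an integrin chain that helps to release it, 0.951 (0.746 to 1.21). Lrrc32, which anchors latent TGF-beta on regulatory T cells and was singled out after its values were seen, gave 17 UMIs in regulatory T-like cells at 7 weeks and 8 at 12 weeks, or 32.0 and 10.8 CPM. The other ligands were nearly absent from the compared classes, with 12 and 33 UMIs of Tgfb3 and 1 and 4 of Tgfb2.

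The remaining signalling genes with the most UMIs were within 1.5-fold. Tgfbr3, a coreceptor, had a common ratio of 1.03 (0.745 to 1.42). Smad2, the partner of Smad3, had 0.967 (0.810 to 1.16), Smad4, the common Smad, 0.824 (0.665 to 1.02), and Smad5, which serves bone morphogenetic protein receptors, 1.02 (0.760 to 1.36). Of the adaptors and modifiers, Fkbp1a, which binds the type I receptor, had 1.04 (0.984 to 1.11), Strap 1.02 (0.940 to 1.12) and the deubiquitinase Usp15 0.849 (0.726 to 0.994). None of the 7 adaptors and modifiers measured was beyond 1.5-fold. Acvrl1, a type I receptor with 14 and 67 UMIs, was too sparse to be measured.

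Of 8 inhibitors and corepressors measured, 2 were lower by over 1.5-fold, Smad7 and Pmepa1, where 5.06% of all genes measured were. Pmepa1, which sequesters receptor-activated Smads and is induced by TGF-beta, had a common ratio of 0.661 (0.542 to 0.806), and was named after its value was seen. Tgif1, a corepressor, had 1.10 (0.938 to 1.29).

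Of the 3 target genes measured, 2 were lower by over 1.5-fold and 1 was higher, where 5.06% of all genes measured were lower. Itgae had 243 CPM at 7 weeks and 111 CPM at 12 weeks in regulatory T-like cells, from 129 and 82 UMIs, a ratio of 0.456 (0.342 to 0.606), and a common ratio of 0.546 (0.456 to 0.653). In Hopx CD8 T-like cells it gave 12 UMIs at 7 weeks and 1 at 12 weeks. Not all classes shared the direction. Naive T-like cells with Cd8a had 35.1 and 46.9 CPM of Itgae (ratio 1.34, 0.669 to 2.96), and cycling-like cells 14.5 and 14.8 CPM (ratio 1.02, 0.579 to 1.87). Klf10, an early response gene of TGF-beta, had a common ratio of 0.584 (0.503 to 0.677), with 81.6 and 35.8 CPM in Il21 helper T-like cells (ratio 0.438, 0.307 to 0.622). Tgfbi, a secreted matrix protein, went the other way at 2.47 (1.78 to 3.44). Of its UMIs in the compared classes, the Ppp1r14a Ffar2 cluster held 36 of 42 at 7 weeks and 212 of 239 at 12 weeks. Its level there was 42.9 CPM at 7 weeks and 110 CPM at 12 weeks (ratio 2.56, 1.79 to 3.75), and 1 cell held 33.3% of its UMIs at 7 weeks. All kept cells held 1373 Tgfbi UMIs, so most lay outside the compared classes and are not in these ratios.

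**Figure D4:**
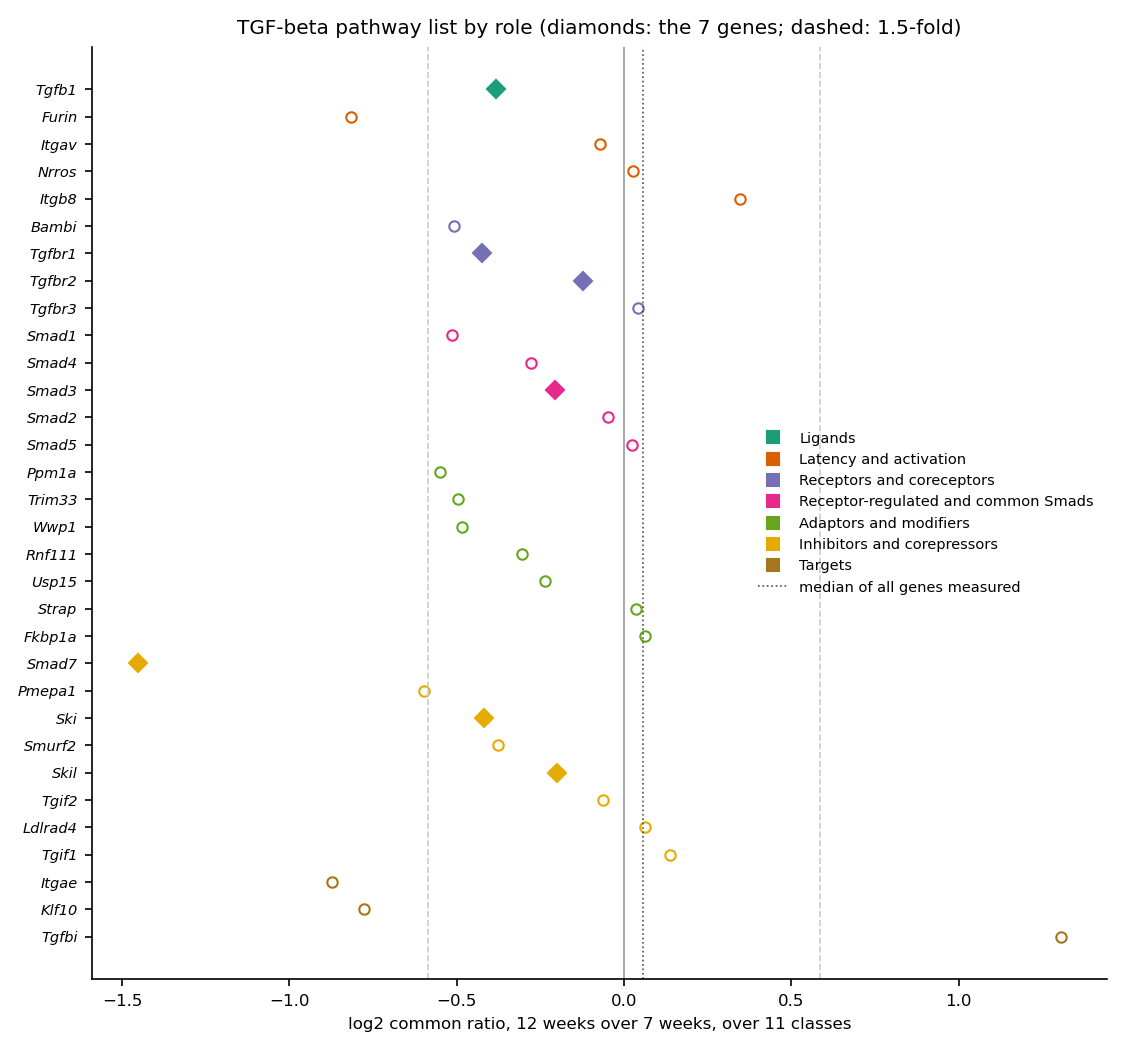
Log2 common ratio of 12 weeks over 7 weeks across 11 classes (x axis) of the 32 pathway genes with at least 100 UMIs (y axis), coloured by role. Diamonds are the 7 genes described here, circles the other 25, dashed lines 1.5-fold and the dotted line the median of all genes (0.06). Smad7 lies at -1.45, below all others of the list, and Tgfbi at 1.31.

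Several other measures differed between the libraries in the same classes. A list of 22 immediate-early and stress genes, which dissociation of tissue can induce, was also measured. Of these, 8 were lower at 12 weeks by over 1.5-fold in the common ratio and 0 were higher. Over all 9059 genes measured, 5.06% were lower and 216 were higher. The list's median log2 common ratio was -0.37, against -1.45 for Smad7. Its 3 most abundant genes had common ratios of 0.873 (Junb), 0.745 (Hspa1a) and 0.917 (Nfkbia). Ier5 (0.209), Hspa1b (0.323) and Rhob (0.338), picked after their values were seen, had lower common ratios than Smad7 (0.365). Within the 11 classes, 1 to 5 of the 17 to 21 list genes measured had a lower ratio than Smad7. Summed acinar transcripts, from exocrine cells of the pancreas, were 14.9 to 56.0 CPM over the classes at 7 weeks and 119 to 282 CPM at 12 weeks, and endocrine transcripts 17.9 to 56.0 and 105 to 209 CPM. Erythroid transcripts were 22.6 to 57.6 and 19.1 to 36.7 CPM. The part of these in the Smad7 difference was not tested.

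The 46 genes lower in all 11 classes, Smad7 among them, held many pseudogenes by the annotation, 18 of 46 or 39.1%, against 25 of 2570 (0.973%) of all genes measured in every class. Pseudogenes share sequence with their parent genes, so that their counts depend on how reads were assigned. The protein-coding genes of the 46 included Ier5 at a common ratio of 0.209, Glrx5 at 0.229, Tmem160 at 0.303, Hspa1b at 0.323 and Jund at 0.443, chosen after their values were seen. Other genes that the annotation types as protein-coding carry pseudogene names, among them Rpl10-ps3 (0.432), Rps12-ps3 (0.471) and Rpl9-ps6 (0.487). The 18 leave these out, so they do not count every gene of the 46 that resembles another. The part of read assignment in the Smad7 difference was not tested.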

How the data were processed

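The authors deposited UMI counts by gene and barcode, 1 matrix per library. The submitters' processing notes name Cell Ranger 1.3.1 and mm10, with no annotation version or cell calling settings. The 7 genes and all lists were chosen with earlier results of these data known. Kept barcodes had 200 or more genes and no more than 10% of UMIs from mitochondria (4 and 8 were left out). Scrublet marked 2 (0.180%) and 8 (0.285%) as doublets, which were removed; such low shares leave doublets among the cells. Cells were clustered together in scanpy 1.11.5 (2000 variable genes without the pathway list, 30 principal components, 15 neighbours, Leiden resolution 1.0). A cluster took a name where a marker list had at least 2 genes among its 10 leading genes by fold, more than any other list, and at least 3 detected. Splitting like-named clusters by leading genes followed sight of the clusters. Set aside were 2 and 15 cells in which acinar, endocrine, erythroid and stromal markers made over 2% of UMIs.

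UMIs were summed per class and library. Ratios have exact conditional 95% intervals, with Mantel-Haenszel common ratios over classes, in scipy 1.17.1, and edgeR 4.0.16 gave TMM factors. Intervals take each UMI as independent, so differences between cells or mice are not in them. With 1 library per age no test was made. The ratio functions were tested on simulated data. Named were the 7 genes; up to 3 pathway genes per role with most UMIs and any lower or higher by over 1.5-fold, with an interval leaving out 1, in at least 3 classes; the 5 genes most alike to Smad7 and to Tgfb1 by Pearson r of log2(CPM + 10); and the 3 most abundant immediate-early genes.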

Additional observations from a re-analysis of the deposited data

How the results depend on the processing

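No replicate could be left out and no paired analysis was possible because each age had 1 library. The common ratios kept their direction, and stayed within the counting interval of the value reported above, under each of 13 alternatives. These were clustering at resolution 0.5 or 1.5, classes by marker score, 1000 variable genes, the pathway list kept in clustering, thinning to 1000 UMIs, leaving out the cell with most Smad7 UMIs, stricter cell filters, other-tissue cells kept, cells with a Cd3e UMI left out of the B-like class and the Ppp1r14a Ffar2 cluster (chosen after seeing the data), and, as each result allows, other scalings or other comparator genes. Smad7 ranged from 0.352 to 0.379, the other 6 genes from 0.777 to 0.815, and Smad7 against them from 0.426 to 0.459. The count of genes past 1.5-fold in a class, summed over the 11 classes, depends on the UMI minimum: 11132 (19.1% of pairs tested) with at least 30 UMIs, 2447 (9.59%) with at least 100 and 25732 (29.1%) with at least 10. Depth limits Smad3 in all classes and Tgfbr1 in 5.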
